A study of Mus musculus with 6 samples.

Results

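The Lin28 and Myc growth genes are 10 protein-coding mouse genes that were chosen by name. They are Lin28a and Lin28b, the let-7 target genes Hmga2, Igf2bp1, Igf2bp2 and Igf2bp3, the Myc family genes Myc, Mycn and Mycl, and the Myc partner gene Max. All 10 were found among the 21883 protein-coding genes on the main mouse chromosomes. They were examined in H3K4me3 chromatin immunoprecipitation and sequencing (ChIP-seq) of Lgr5-positive progenitor cells from the cochlea, the hearing organ of the inner ear. Neomycin-treated cells had 12 h of neomycin, an aminoglycoside antibiotic that kills hair cells, and untreated cells had none. Both groups came from C57BL/6 mice of either sex at postnatal day 0 to 3 that carried the Lgr5-EGFP-creERT2 allele, in which the Lgr5 locus drives a green fluorescent protein. In both groups the dissected cochleae were kept in medium with IGF-1, bFGF, EGF, heparin, B27 and N2, and the dissociated cells were sorted by the green signal. Each group had 2 H3K4me3 libraries, and the 2 input libraries were not analysed here.

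Lin28a and Lin28b are RNA-binding proteins that block the maturation of let-7 microRNAs. Let-7 in turn lowers the messenger RNAs of Hmga2, of the Igf2bp genes, of Myc and Mycn and of Lin28b itself, so that Lin28 and let-7 act against each other in growing progenitor cells. In the mouse cochlea this pair of opposing factors is known for setting when progenitors stop dividing and how readily supporting cells of newborn animals re-enter the cell cycle. Myc proteins pair with Max and bind the DNA sequence CACGTG, called an E-box, at genes of growth and ribosome synthesis. H3K4me3, the trimethylated lysine 4 of histone H3, marks the start sites of active genes and of genes that are poised but silent. A peak is therefore a measure of the mark and not of transcription.

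The values below come from a list of peaks that the authors called separately in each library. A peak has a start, an end, a length in bp and a pileup, the height of the read signal at its summit in units that were not scaled between libraries. The start site was the annotated transcription start for 8 genes. For Myc and Igf2bp1 it was the gene end with peaks in more libraries and then more peak bases, a choice made from the peaks without the treatment labels. A gene was marked at its start when a peak overlapped the 1 kb either side of that position by at least 1 bp. The gene region was the gene plus 1 kb either side.

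The lists differed in ways that touch every length below. They held 14203 and 11545 peaks in neomycin replicates 1 and 2, against 15938 and 10520 in untreated replicates 1 and 2. The shortest peak was 48 and 110 bp in the neomycin lists, against 187 and 234 bp in the untreated lists, and the median peak was 70 and 142 bp against 310.5 and 340 bp. Neomycin and untreated libraries thus differed in peak length across the whole genome. The labels give H3K4me3 and a single antibody throughout, but the names under which the 2 untreated lists were deposited say H3K4me2. Groups and mark were taken from the labels, and if those names were right, the treatment and the mark cannot be told apart. Depth is unknown, as no read totals are listed. Separate cultures or animals for the 2 libraries of a group are not stated in the labels, so p-values measure only how far these libraries differ, which may be technical. Markers of supporting cells were marked at the start in 7 and 8 of 8 genes with neomycin, against 8 and 8 untreated. Of the 6 mesenchyme markers, 0 and 0 had a start-site peak with neomycin, against 3 and 4 untreated, with summed start-site lengths of 0 and 0 bp against 1143 and 2053 bp. Coch, Twist1 and Prrx2 had one in both untreated libraries, while Col1a2 and Pou3f4 had no peak. Of 6 hair cell markers, 2 and 1 had a start-site peak with neomycin, against 4 and 1 untreated, and of 5 spiral ganglion neuron markers 0 and 2 did, against 4 and 2. Glia and endothelium markers were marked in 0 to 2 genes of 4, and blood markers in none. The part of such cells in the results below was not tested, and in sorted bulk samples fewer cells with a mark and less of it per cell cannot be told apart.

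The promoters of 4 genes show the range in this group of genes. Each runs from 250 bases before the start to 50 after it on the gene's strand, taken from RefSeq on GRCm38.p6, the assembly of mm10, with E-boxes in capitals. Igf2bp2, at chr16:22163250-22163549 on the minus strand, is shown because peaks covered all 300 bases in both untreated libraries and none in either neomycin library. Igf2bp3, at chr6:49214905-49215204 on the minus strand, is shown for its pair of E-boxes. Max, at chr12:76962199-76962498 on the minus strand, and Lin28b, at chr10:45470152-45470451 on the minus strand, hold 1 E-box each. The Lin28b sequence is at its listed start, which had no peak in any library. Most Lin28b peaks lay near the gene end 16.1 kb away.
Igf2bp2: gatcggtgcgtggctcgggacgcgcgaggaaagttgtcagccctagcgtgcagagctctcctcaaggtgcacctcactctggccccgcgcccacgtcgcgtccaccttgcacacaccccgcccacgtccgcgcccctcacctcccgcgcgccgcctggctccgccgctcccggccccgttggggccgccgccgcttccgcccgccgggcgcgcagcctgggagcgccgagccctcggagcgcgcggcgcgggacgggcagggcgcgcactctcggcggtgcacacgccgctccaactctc
Igf2bp3: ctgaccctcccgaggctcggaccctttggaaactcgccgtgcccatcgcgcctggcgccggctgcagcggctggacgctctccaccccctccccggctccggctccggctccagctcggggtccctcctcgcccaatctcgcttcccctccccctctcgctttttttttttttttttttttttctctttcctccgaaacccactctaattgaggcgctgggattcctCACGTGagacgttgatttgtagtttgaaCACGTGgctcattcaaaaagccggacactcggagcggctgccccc
Max: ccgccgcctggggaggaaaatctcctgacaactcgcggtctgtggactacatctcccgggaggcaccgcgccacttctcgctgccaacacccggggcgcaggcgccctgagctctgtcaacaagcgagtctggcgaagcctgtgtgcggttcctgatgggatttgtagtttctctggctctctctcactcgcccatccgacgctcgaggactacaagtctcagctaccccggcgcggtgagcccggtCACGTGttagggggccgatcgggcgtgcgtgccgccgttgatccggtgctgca
Lin28b: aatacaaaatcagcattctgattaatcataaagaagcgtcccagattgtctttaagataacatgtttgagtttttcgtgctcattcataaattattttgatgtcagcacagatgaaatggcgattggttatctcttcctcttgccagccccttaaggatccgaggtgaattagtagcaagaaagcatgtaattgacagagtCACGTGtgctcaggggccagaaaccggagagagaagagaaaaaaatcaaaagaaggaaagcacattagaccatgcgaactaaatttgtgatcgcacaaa

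These sequences differ widely in CpG content. Igf2bp2 had 47 CpG dinucleotides and 76.7% G and C, the highest values of the 8 genes with a listed promoter, and Lin28b had 8 CpGs and 39.0% G and C, the lowest values. CpG dinucleotides were as frequent as base composition predicts in Igf2bp2, at an observed to expected ratio of 1.09, and nearly so in Igf2bp3 at 0.98 and Max at 0.96. They were scarcest in Lin28a, at 0.35, which was close to the median of 0.38 over all listed promoter windows. Of all those windows, 35.8% had a ratio of at least 0.6. The motif CACGTG, which reads the same on both strands, was in 3 of the 8 promoters. It was in 7.15% of 32851 promoter windows of the same length in the whole table. A match is only a run of letters and says nothing about binding by Myc or Max.

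Of the 10 genes, 4 were marked at the start in all 4 libraries, namely Hmga2, Myc, Mycl and Max, where 16.6% of all genes were. In neomycin replicates 1 and 2, 6 and 6 of the genes were marked at the start, where 34.8% and 33.6% of all genes were. In untreated replicates 1 and 2 the counts were 9 and 7, where 47.0% and 36.3% of all genes were. Lin28b counted as unmarked at the start throughout, as its peaks lay away from its listed start. Over the whole gene region, 8 and 8 genes had a peak with neomycin, against 10 and 9 in untreated cells, where 39.3% and 37.6% against 51.0% and 39.7% of all genes did. In all, 7 genes had a gene-region peak in all 4 libraries, where 19.8% of all genes did. These were the same 4 genes plus Lin28b, Igf2bp3 and Mycn.

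A presence that followed the treatment was seen at the start of 1 gene, Igf2bp1, which had peaks there in untreated replicates 1 and 2 and none with neomycin. This pattern was found in 4.66% of all genes. Igf2bp1 was joined by Igf2bp2 without neomycin replicate 1, by Igf2bp3 without neomycin replicate 2 and by Lin28a without untreated replicate 2. Leaving out a library loosens the rule for every gene. The pattern was then found in 2435, 2247 and 1909 of all 21883 genes, in the same order, against 1020 with all libraries. With all libraries, the opposite pattern was found in none of the 10 genes and in 1.40% of all genes. Over gene regions neither pattern was found in the 10 genes, where 4.51% of all genes were marked only untreated and 1.56% only with neomycin. Presence was not tested for single genes, because 4 libraries can be parted into pairs in only 3 ways and no exact permutation p under 0.333 can be reached.

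**Figure D1:**
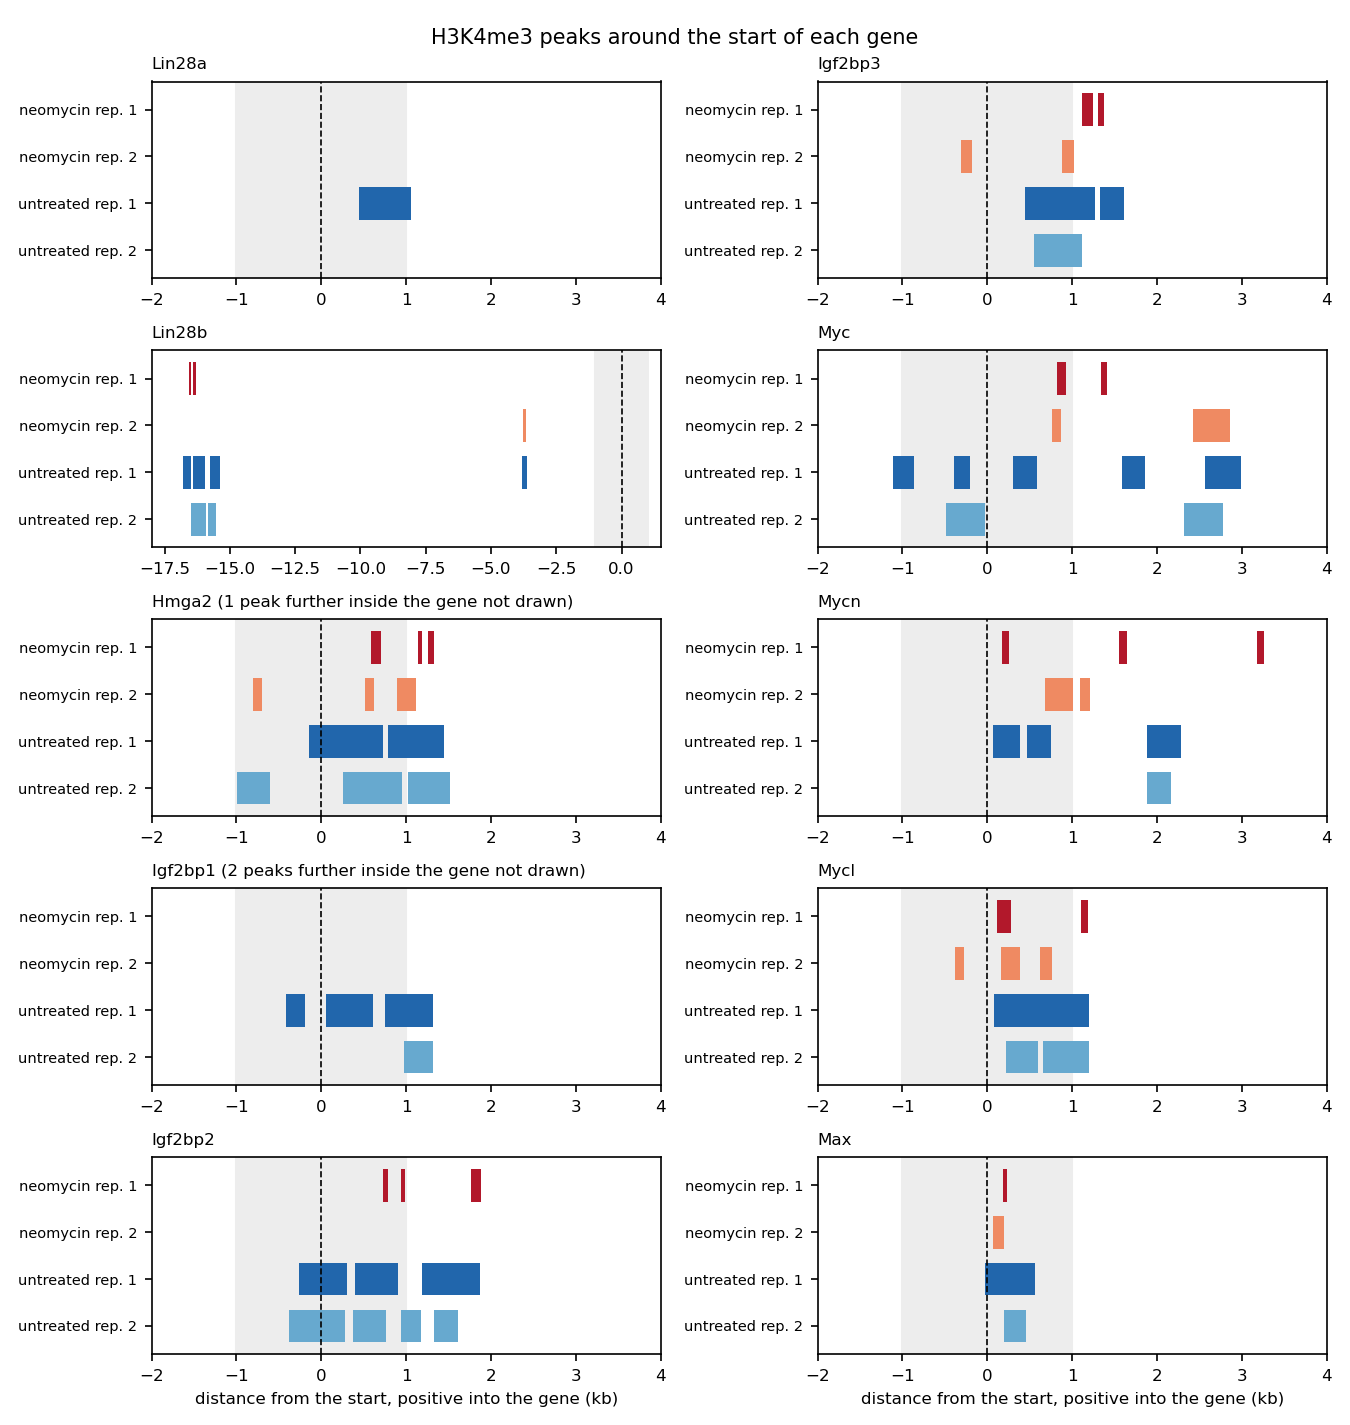
Position of each peak in kb from the start of the gene, positive into the gene, with 1 row per library; neomycin libraries are red, untreated libraries blue, and the grey band is the 1 kb either side of the start. Most red peaks are shorter than the blue ones below them, most Lin28b peaks lay near the gene end 16.1 kb upstream of its listed start, and Igf2bp1 had start-site peaks in the untreated libraries alone.

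Lin28a had the least mark of the 10 genes. The gene lies on chromosome 4 from 134003330 to 134019196, on the minus strand. Its only peak was 618 bp long with a pileup of 11, in untreated replicate 1, from 442 to 1059 bp inside the gene. No peak was called in neomycin replicates 1 and 2 or in untreated replicate 2, where the nearest peaks lay 18.1, 18.0 and 50.1 kb from the start. With 1 of 2 untreated libraries marked, the difference from the neomycin libraries is no larger than the difference within the untreated group.

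Lin28b had no peak at its listed start in any library. The listed start, at position 45470201 of chromosome 10, lies 16.1 kb inside the gene's end at 45486314, and most peaks were at that outer end. Neomycin replicate 1 had peaks of 96 and 79 bp there, and neomycin replicate 2 had none. Untreated replicate 1 had 3 peaks there, of 378, 489 and 286 bp, and untreated replicate 2 had 2, of 302 and 575 bp. A further peak between the listed start and the outer end, within positions 45473817 to 45474003, was 110 bp long in neomycin replicate 2 and 187 bp in untreated replicate 1, with summits 14 bp apart. The outer end was thus marked in 3 libraries, and the inner site in 1 library of each group.

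Summed over the gene region, Lin28b had 175 and 110 bp with neomycin, against 1340 and 877 bp untreated, and the groups did not overlap. Both neomycin lengths lay below both untreated lengths in 79.5% of the 4341 genes with gene-region peaks in all libraries. Its highest pileup was 9 and 12 with neomycin, against 12 and 13 untreated. The pileup groups touched at 12.

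The let-7 target Hmga2, a chromatin protein that binds the minor groove of AT-rich DNA, had the longest mean mark of the group. It lies on chromosome 10 from 120361268 to 120476469 on the minus strand. Start-site peaks summed to 118 and 449 bp with neomycin, against 1526 and 1079 bp untreated. Both neomycin libraries lay below both untreated libraries, as in 79.9% of all genes marked at the start in all libraries. The tallest peak of the gene region had a pileup of 9 and 16 with neomycin, against 19 and 15 untreated, so that heights overlapped. These tallest peaks lay between 144 bp before the start and 1329 bp inside the gene, but not all at the same bases. That of neomycin replicate 1, from 1263 to 1329 bp inside, was outside the 1 kb window. It did not overlap that of neomycin replicate 2, from 510 to 625 bp inside. Only the tallest peak of untreated replicate 1 covered the start itself. A peak before the start was found in 1 library of each group, 110 bp long in neomycin replicate 2 and 392 bp in untreated replicate 2, and the longer one spanned the shorter.

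The genes most like Hmga2 in gene-region peak length over the 4 libraries, by Euclidean distance of log2 lengths among 4341 genes marked in all of them, were Fgf9, Klf13 and Pik3r1. Fgf9 had 350 and 428 bp with neomycin, against 1520 and 1283 bp untreated, at a distance of 0.31. Klf13 and Pik3r1 followed at 0.33 and 0.34. For comparison, Hmga2 had 349 and 449 bp with neomycin, against 1526 and 1579 bp untreated.

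The Igf2bp genes encode RNA-binding proteins that stabilise and localise messenger RNAs, Myc mRNA among them. Igf2bp1, on chromosome 11 from 95957163 to 96005944, had start-site peaks of 0 and 0 bp with neomycin, against 1360 and 348 bp untreated. The untreated value in replicate 1 came from 3 peaks with pileups of 10, 17 and 10, and that in replicate 2 from 1 peak with a pileup of 9. That single peak reached only 28 bp into the 1 kb window, from 973 to 1320 bp inside the gene, and at a required overlap of 100 bp it would not count. A peak between 14592 and 14827 bp inside the gene was found in 1 library of each group, 110 bp long in neomycin replicate 2 and 236 bp in untreated replicate 1, with summits 4 bp apart. The gene region thus held a peak in 1 of the 2 neomycin libraries.

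Igf2bp2, on chromosome 16 from 22059009 to 22163299, showed the widest untreated start-site mark in replicate 2. Its start-site peaks summed to 110 and 0 bp with neomycin, against 1063 and 1293 bp untreated. The neomycin value came from peaks of 48 and 62 bp with pileups of 8 and 9, both between 727 and 989 bp inside the gene. A single untreated peak covered the start in each library, 559 bp long with a pileup of 18 in replicate 1 and 669 bp with a pileup of 17 in replicate 2. Those peaks lie over the whole CpG-dense sequence printed above, and no neomycin peak reached it. That absence was not particular to Igf2bp2. Among the listed promoters of the group, neomycin replicate 1 covered no base and neomycin replicate 2 only 72 bases, in Igf2bp3. The median neomycin peak was 70 and 142 bp long, shorter than the printed stretch. The share of all promoters with such coverage was not worked out. When neomycin replicate 1 was left out, Igf2bp2 was marked at the start only in untreated cells, as were 2435 of all genes, against 1020 with all libraries. It had that pattern also when only peaks with a -log10 q of at least 10 were counted. Under that filter, 1455 of all genes were marked only untreated and 1 only with neomycin. The filter kept 5.26% and 2.45% of neomycin peaks, against 39.4% and 21.5% of untreated peaks, so it favours this pattern in any gene.

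Igf2bp3, on chromosome 6 from 49085218 to 49215469, was marked in all 4 libraries over its gene region and in 3 at its start. The start-site sums were 0 and 274 bp with neomycin, against 828 and 563 bp untreated. In neomycin replicate 1 the nearest peak, 135 bp long with a pileup of 5, lay 112 bp outside the 1 kb window. The highest pileup was 6 and 12 with neomycin, against 15 and 13 untreated. It was the only gene of the 7 with peaks in all libraries whose heights did not overlap as deposited, where 42.5% of all such genes had both neomycin values below both untreated values. One of the neomycin replicate 2 peaks, from 315 to 179 bp before the start, covered 72 bases of the printed promoter.

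**Figure D2:**
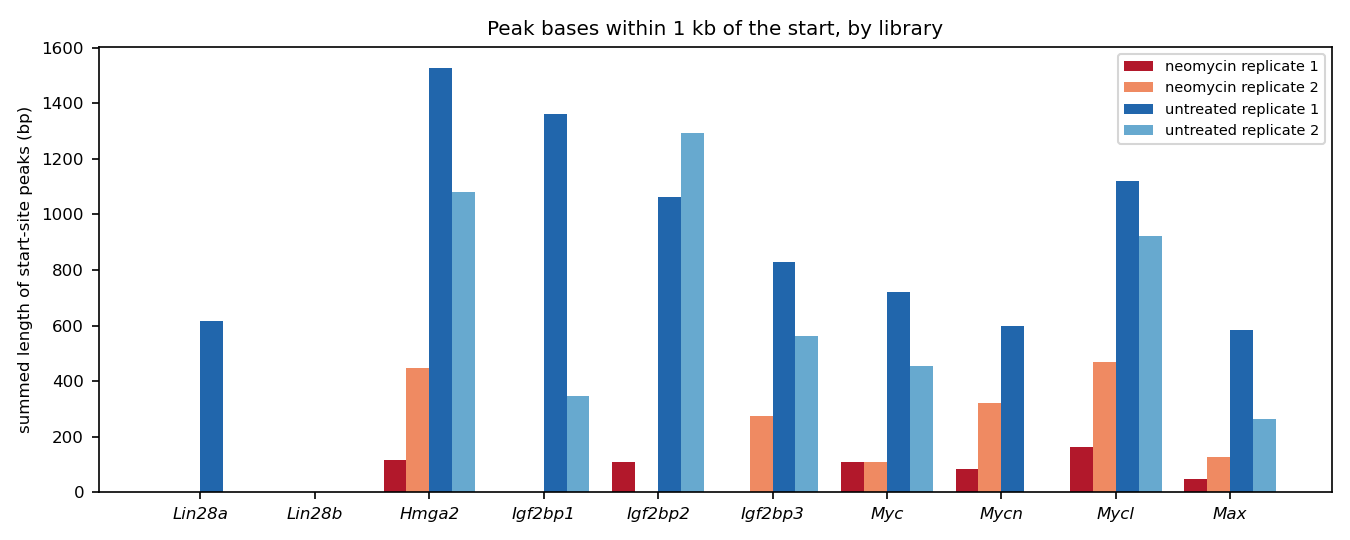
Summed length in bp of the peaks that touch the 1 kb either side of the start, 1 bar per library, for each of the 10 genes. In the 4 genes marked in all libraries (Hmga2, Myc, Mycl and Max) both red neomycin bars are below both blue untreated bars, a pattern also seen in 79.9% of all 3636 genes marked in all libraries; a missing bar is 0 bp.

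Among the Myc genes, Myc itself was marked in all 4 libraries, but not at the same bases. It encodes a transcription factor of growth and division and lies on chromosome 15 from 61985341 to 61990361. Start-site peaks summed to 110 and 110 bp with neomycin, against 720 and 455 bp untreated. Both neomycin libraries had 1 peak of 110 bp at 760 to 928 bp inside the gene, with summits 1 bp apart and pileups of 7 and 8, and neither untreated library had a peak that overlapped it. In neomycin replicate 2 that peak was near the floor of its list. Its length was the shortest there, its pileup of 8 was close to the lowest of 7, and its -log10 q of 3.23 was among the lowest 9.05%. Untreated libraries had peaks just before the start that neither neomycin library had, of 190 bp in replicate 1 and 455 bp in replicate 2. Further inside, at 2320 to 2988 bp, peaks of 429, 423 and 460 bp were found in neomycin replicate 2 and untreated replicates 1 and 2.

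Myc thus held a region of each kind. Merged over the 4 libraries, the peaks of the 10 genes formed 35 regions, of which 4 were in all 4 libraries, at Hmga2, Igf2bp3, Mycl and Max. Such regions were 11.5% of the 24272 in the whole series. The Myc site 760 to 928 bp inside the gene was the only one in both neomycin libraries alone, a kind that was 2.62% of all regions. A set of 5 regions were in both untreated libraries alone, a kind that was 8.88% of all regions. They were at the outer end of Lin28b, the start of Igf2bp1, the start of Igf2bp2, just before the start of Myc and inside Mycn. No peak of the 10 genes overlapped another annotated gene.

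Mycn, the family member of neural and other embryonic progenitors, had a start-site peak in 3 libraries. It occupies chromosome 12 from 12936093 to 12941836 on the minus strand. Its start-site sums were 84 and 323 bp with neomycin, against 598 and 0 bp untreated, and the groups overlapped. Over the gene region it had 268 and 448 bp with neomycin, against 994 and 282 bp untreated, and was the only gene of the 7 whose raw lengths overlapped between groups. A peak between 1883 and 2279 bp inside the gene was found in both untreated libraries, 396 and 282 bp long, and in neither neomycin library. Without untreated replicate 1, the start of Mycn was marked in neomycin cells alone, as were 1293 of all genes, against 307 with all libraries.

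Mycl, the third family member, had start-site sums of 165 and 469 bp with neomycin, against 1121 and 924 bp untreated. It lies on chromosome 4 from 122995588 to 123002490 on the plus strand. In untreated replicate 1 a single peak ran from 82 to 1202 bp inside the gene, the longest of the 77 peaks of the 10 genes. The same stretch held peaks of 376 and 548 bp in untreated replicate 2. With neomycin it held shorter peaks, of 165 and 91 bp in replicate 1 and 218 and 141 bp in replicate 2. The highest pileup, 9 and 13 with neomycin against 19 and 12 untreated, overlapped between the groups.

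Max, the shared partner without which Myc proteins do not bind DNA, had exactly 1 peak in every library. The gene lies on chromosome 12 from 76937269 to 76962323 on the minus strand. The peak was 48 and 127 bp long with neomycin, against 583 and 265 bp untreated, and its pileup was 7 and 13 against 15 and 11. Lengths did not overlap between the groups, while pileups did. Start-site lengths were lower in both neomycin libraries in 79.9% of all genes marked at the start in all libraries. The 48 bp peak was of the shortest length in its list. All 4 peaks lay between 25 bp before the start and 557 bp inside the gene. No neomycin peak reached the printed promoter, and the peak of untreated replicate 1 covered 75 of its bases.

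Most start-site peaks had their summit inside the gene. Of 45 start-site peaks, 35 had their summit on the gene side of the start and 4 covered the start itself, and the median summit lay 447 bp inside. Lin28b gave none of these peaks, and all of its peaks lay before its listed start. Peaks of the shortest length in their list made up 2 of 19 and 5 of 15 gene-region peaks with neomycin, against 1 of 26 and 1 of 17 in the untreated libraries. The matching shares over all genes were not worked out. The -log10 q of a peak is the authors' own measure, while the threshold of 10 was set here and is stricter than theirs. A -log10 q of at least 10 was reached by 0 and 1 of these gene-region peaks with neomycin, against 8 and 3 untreated. In all peaks of the lists that share was 5.26% and 2.45% with neomycin, against 39.4% and 21.5% untreated.

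Lengths were tested after each library's log2 values had been centred on their median over all genes with peaks in all 4 libraries, since peaks were shorter with neomycin throughout the genome. Before centring, both neomycin values lay below both untreated values at the start of 4 of 4 genes, where 79.9% of all genes marked in all libraries had this pattern and 0.330% the opposite one. Over gene regions it was 6 of 7 genes, where 79.5% of all genes had it, and none had the opposite pattern, where 0.299% of all genes did. After centring, 3 of 4 genes had it at the start, Hmga2, Myc and Max, where 21.0% of all genes had it. Over gene regions, Lin28b and Max had both centred neomycin values below both untreated values and Mycn and Mycl had both above, where 21.1% and 19.4% of all genes did. Hmga2, Igf2bp3 and Myc overlapped between the groups.

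No gene of the group passed limma's test on centred peak length, in which p-values were Benjamini-Hochberg adjusted over all genes tested. At the start, the log2 difference of neomycin minus untreated was -0.89 in Hmga2 (SE 0.62, adjusted p = 0.700) and -0.79 in Myc (SE 0.61, adjusted p = 0.737). It was -0.74 in Max and -0.28 in Mycl. The median of these 4 genes was -0.77, all 4 were below 0, and the median over all 3636 genes was -0.0064. By the same test 0 of the 3636 genes were called, while 9.65% had an unadjusted p under 0.05. Leaving out 1 library gave -1.38 to -0.35 in Hmga2, -1.27 to -0.33 in Max and -1.22 to -0.31 in Myc. In Mycl it gave -0.56 to 0.046, the highest without neomycin replicate 1. With 2.5 kb either side of the start, Myc was at -0.025 and Mycl at 0.014, so the shared direction does not hold in that window.

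Over gene regions the direction was mixed. Lin28b had a difference of -1.37 (SE 0.64, 95% interval -2.72 to -0.02), with an unadjusted p of 0.047 and an adjusted p of 0.515 by limma over 4341 genes. Mycn lay on the other side at 0.98 (SE 0.63, adjusted p = 0.670). The sizes of both depended on single libraries. Lin28b ranged from -2.12 without neomycin replicate 1 to -0.58 without neomycin replicate 2, and was -0.41 with lists of equal length. Its peaks in neomycin replicate 1 lay beyond the gene's end and counted only through the 1 kb flank. Its value in neomycin replicate 2 was a single peak of 110 bp at the inner site, the shortest length in that list. Without the flank, or at a required overlap of 100 bp, Lin28b could not be fitted. Mycn ranged from 0.17 without untreated replicate 2 to 1.72 without untreated replicate 1, and was 0.31 at a required overlap of 100 bp. Max ranged from -1.21 without untreated replicate 2 to -0.34 without untreated replicate 1. The other 5 genes lay between -0.74 in Max and 0.04 in Mycl. The median of the 7 was -0.26, against -0.02 over all genes, with 5 below 0 and 2 above. By limma 0 of the 4341 genes were called, and 9.49% had an unadjusted p under 0.05.

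Without centring, limma called 3 of 4 genes lower with neomycin at the start, with log2 differences of -2.48 in Hmga2, -2.33 in Max and -2.38 in Myc. It called 3 of 7 lower over gene regions, -2.97 in Lin28b, -1.97 in Hmga2 and -2.33 in Max, with adjusted p-values from 0.0129 to 0.0455 over both windows. Without centring the median difference over all genes was -1.59 at the start and -1.61 over gene regions, and 1142 and 1306 genes in all were called. Those calls therefore sit beside a difference of the same direction in the lists as a whole. Mycn was lower with neomycin on that scale, at -0.61, and Mycl at -1.55, so their direction rests on the centring.

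**Figure D3:**
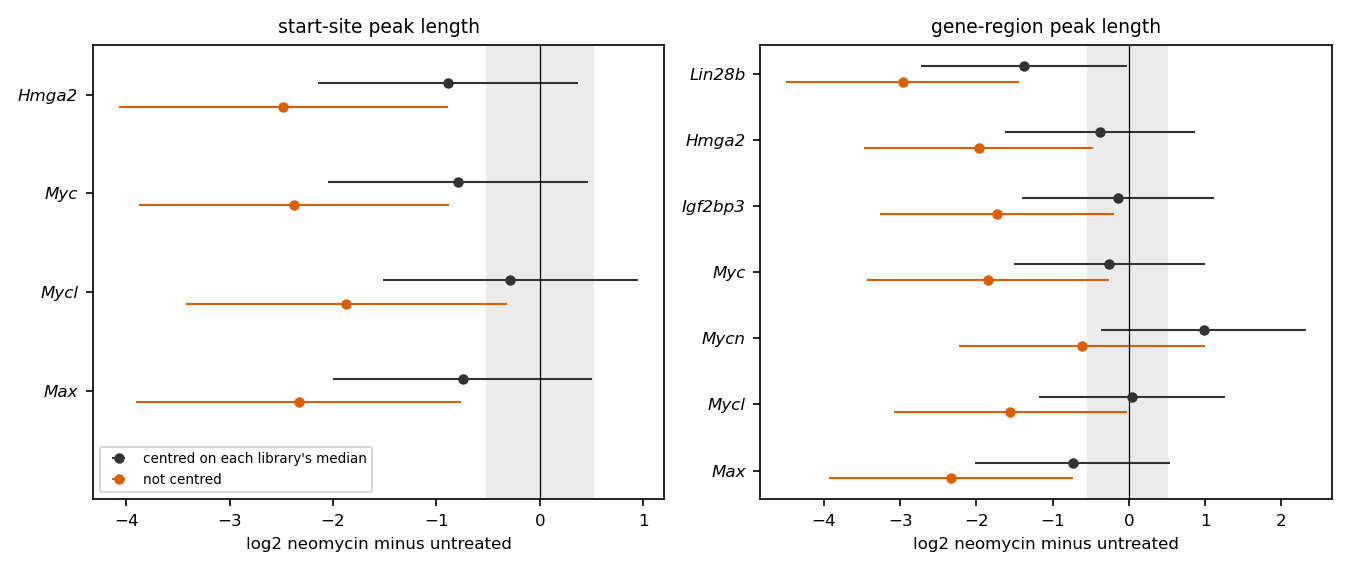
Log2 difference in peak length, neomycin minus untreated, with 95% intervals from limma, at the start (left) and over the gene region (right), for the genes with peaks in all 4 libraries; dark points are centred on each library's median, orange points are not, and grey bands span the middle quartiles of all centred genes. After centring, the interval of Lin28b over the gene region is the only one that does not include 0, and its adjusted p is 0.515.

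No gene of the group passed for height either. The log2 difference in the highest pileup of the gene region, centred in the same way, had a median of 0.13 over the 7 genes, against 0.06 over all 4341 genes, with 6 above 0 and 1, Igf2bp3, below. This direction rests on the centring: as deposited, the mean height was lower with neomycin in all 7 genes, for example 9.5 against 10.5 in Mycn and 11 against 12 in Myc, and the median log2 difference over all genes without centring was -0.51. Mycn had the largest value, 0.41 (SE 0.24, adjusted p = 0.712 by limma). In all, 0.161% of genes were called higher with neomycin and 0.0691% lower, and 7.46% had an unadjusted p under 0.05. As deposited, no gene of the 7 had both neomycin heights above both untreated heights, where 0.323% of all genes did. Lin28b and Mycn had both centred neomycin heights above both untreated heights, where 20.6% of all genes did.

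**Figure D4:**
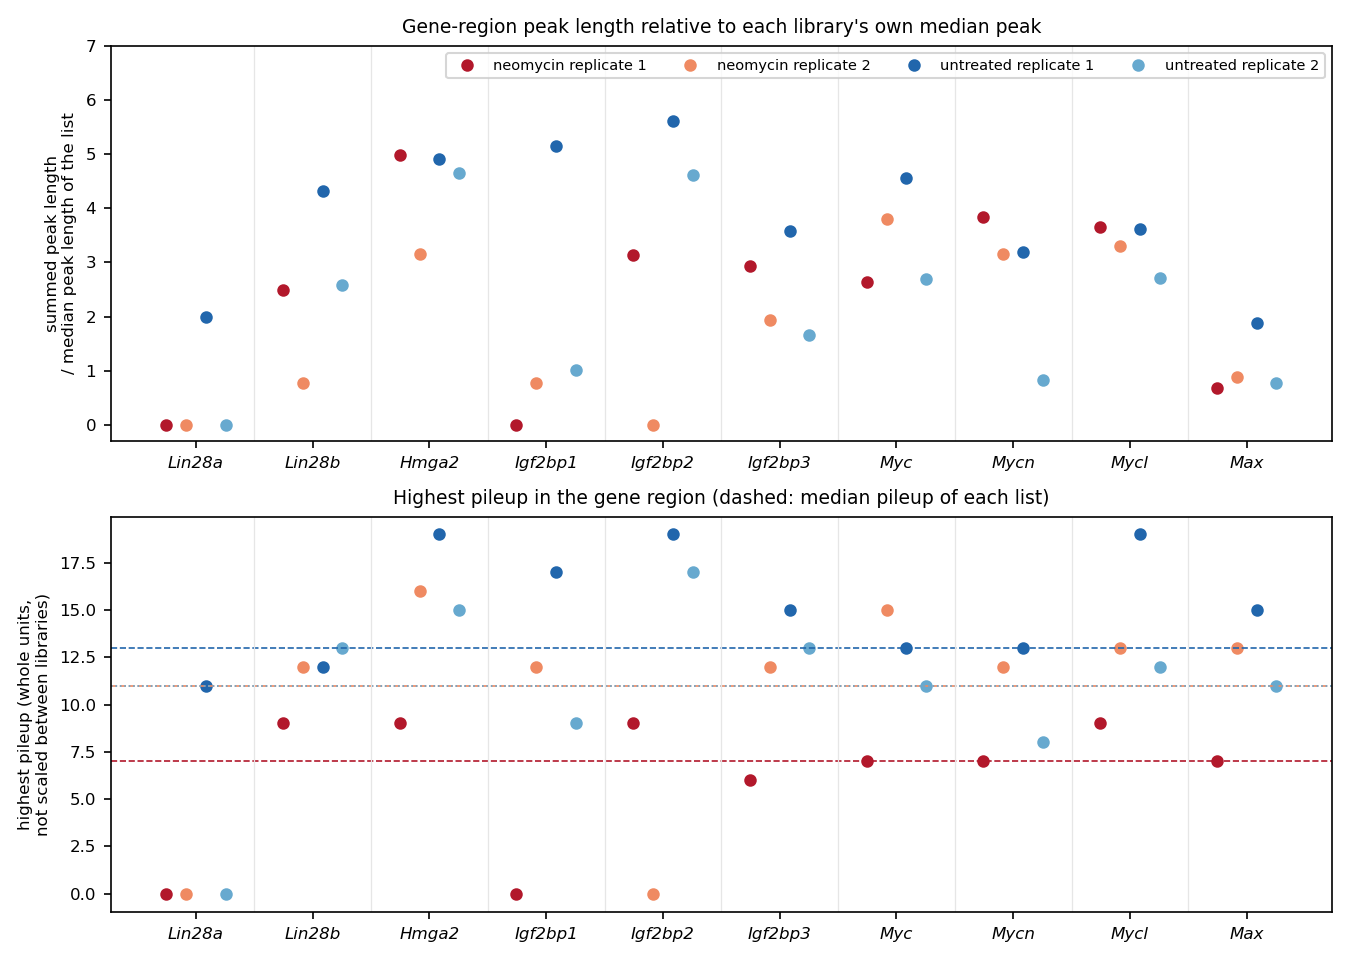
Upper panel, summed gene-region peak length of each gene divided by the median peak length of the same library's list; lower panel, highest pileup in the gene region, with a dashed or dotted line at each list's median pileup; red points are neomycin and blue points untreated libraries. Relative to the list medians, both neomycin points of Igf2bp3 lie within the untreated range. Neomycin replicate 1 lies above that range in Hmga2, Mycn and Mycl, while neomycin replicate 2 lies below it in Hmga2 and within it in Mycn and Mycl. Igf2bp1 and Igf2bp2 each have 1 neomycin point at 0 and no untreated one.

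Other genes of the same pathways were also marked in both groups. Of 20 genes of let-7 processing and let-7 targets, 13 and 15 were marked at the start with neomycin, against 18 and 17 untreated, and 11 were marked in all 4 libraries. Over all genes, 34.8% and 33.6% were marked at the start with neomycin, against 47.0% and 36.3% untreated, and 16.6% in all 4 libraries. Ago2, an effector of microRNAs, had 358 and 113 bp with neomycin, against 1135 and 678 bp untreated. Arid3a, Cdc25a and Cdk6 were also marked in all 4. Dis3l2, the nuclease that degrades the uridylated let-7 precursor made when Lin28 is bound, was marked only untreated, with 0 and 0 bp with neomycin, against 341 and 386 bp. Ccnd2, a cyclin of the G1 phase, was marked in no library.

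The Myc network list of 21 genes includes competitors of Myc for Max, factors that turn Myc over and Myc cofactors. In it, 15 and 15 genes were marked at the start with neomycin, against 16 and 14 untreated. Over all genes it was 34.8% and 33.6%, against 47.0% and 36.3%, with 16.6% marked in all 4 libraries. Of the 21 genes, 8 were marked in all 4 libraries. Among them was Mnt, a Max partner that represses Myc targets, with 125 and 308 bp with neomycin, against 497 and 596 bp untreated. Fbxw7, which targets Myc for degradation, Mlxip and Mxd4 were others. Ruvbl2, an ATPase cofactor of Myc, was marked only with neomycin, at 132 and 148 bp, against 0 and 0 bp untreated. Mga, another Max partner, was marked in no library.

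Of 20 Myc target genes of ribosome synthesis and metabolism, 14 and 12 were marked with neomycin, against 13 and 11 untreated, and 8 were marked in all 4 libraries. The shares over all genes were again 34.8% and 33.6% with neomycin, against 47.0% and 36.3% untreated, and 16.6% in all 4. Ncl, the nucleolar protein nucleolin, had 57 and 191 bp with neomycin, against 787 and 280 bp untreated. Bop1, Fbl and Hspd1 were likewise marked in all 4. Eif4e, the cap-binding factor of translation, was marked only untreated, with 0 and 0 bp with neomycin, against 840 and 546 bp. Npm1 and Rrp9 had no start-site peak in any library. No gene of the 3 lists with peaks in all 4 libraries passed limma's test of length or height, the lowest adjusted p being 0.316. Each list had 1 gene marked in each library of 1 group but in none of the other group, where 4.66% of all genes were marked only untreated and 1.40% only with neomycin.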

How the data were processed

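H3K4me3 ChIP-seq was analysed in 4 libraries of Lgr5-positive cochlear cells, 2 neomycin and 2 untreated, grouped by the labels. The submitters' processing notes name mm10 as build, with CASAVA 1.4, Bowtie2, MACS2 and deepTools. What each tool did, its settings and whether inputs were used is not given in the sources used here. Peaks were listed per library. Per the file headers, each deposited peak has a start, end, summit, length and pileup signal, a fold enrichment ratio and -log10 p-values and q-values. Fold enrichment was not used. The -log10 q is the authors' and served only to filter or describe peaks. Depth is unknown.

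Genes and starts came from RefSeq tables of GRCm38.p6, with a listed start for 17491 of 21883 protein-coding genes. Presence was counted at an overlap of at least 1 bp within 1 kb of the start or gene. Summed peak length and highest pileup of genes marked in all 4 libraries were compared with limma 3.58.1 in R 4.3.3, as log2 values centred on each library's median, over all such genes, at a Benjamini-Hochberg adjusted p of 0.05. Replicate numbers were not used to pair the samples, as the labels do not say whether they mark a shared batch. Counting was done in Python 3.11.15 with pandas 2.3.3, numpy 2.4.6 and matplotlib 3.10.9. Promoter entries were found for 8 of the 10 genes.

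The members and gene lists were chosen with earlier results of these data known. All members were described. From each list the genes marked in each library of 1 group but in none of the other group were named, then up to 4 in alphabetical order among those marked at the start in all libraries and up to 4 among those marked in none.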

Additional observations from a re-analysis of the deposited data

How the results depend on the processing

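Igf2bp1 was the 1 gene of the group marked at the start only in untreated cells. The count was 2 with peaks of -log10 q at least 10 (Igf2bp2 and Igf2bp3), 0 among genes with a listed start (a check chosen after seeing the data), and 1 to 2 when 1 library was left out. At an overlap of 100 bp it was Igf2bp2 instead. Marked with neomycin alone were 0 to 1 on leaving out a library. Over gene regions the untreated count was 2 with the stricter q and 0 to 1 without a library. Over all genes, 307 starts were marked with neomycin alone, 1 with the stricter q, 101 at 100 bp and 472 to 1293 without a library, the highest without untreated replicate 1. The 1020 untreated ones became 1455 with the stricter q, 1947 at 100 bp and 1260 to 2435 without a library. Length calls over all genes, 0 at both windows, became 1142 at the start and 1306 over regions without centring, with 3 genes of the group each, 2 and 5 at 100 bp, and 0 to 423 and 0 to 303 without a library, the highest without neomycin replicate 2. Height calls, 10 in all, became 1226 with a pseudocount, 1 at 100 bp and 0 to 0 without a library. Centring also set direction: without it Mycn over its region was -0.61 and Mycl -1.55. Mycl was also -0.11 with a pseudocount, -0.23 with lists of equal length, -0.24 at 100 bp and -0.0043 without untreated replicate 2, and its region ranged from -0.0043 to 0.064 without a library. At its start Mycl was 0.014 with 2.5 kb windows and -0.56 to 0.046 without a library, the highest without neomycin replicate 1. Igf2bp3 ranged from -0.54 to 0.18 without a library, with 0.11 without neomycin replicate 2 and 0.18 without untreated replicate 1. Myc was 0.53 without the flank and -0.57 to 0.099 without a library, the highest without neomycin replicate 1. The causes were not tested. No gene of the group was called on leaving out a library, where a lone library is assumed to vary like the others. Lengths under the stricter q could not be fitted, with almost no gene left.

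With the replicate number as a block, 0 genes were called for height, and still 0 for length. Deviations of same-numbered libraries did not go together (correlations -0.018 at the start, -0.007 and -0.009 over regions). Centring takes out shifts of a whole library, so these values cannot tell whether a replicate number marks a shared batch. The labels do not say.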
